A study of Mus musculus with 8 samples.

Results

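Chemokines, interleukins and their receptors were followed in RNA sequencing of mouse hair follicle stem cells that lacked the transcription factors NFIB, NFIX, both or neither. The members were all rows of the deposited TPM table (a transcript level scaled for gene length and library size) with a chemokine or interleukin symbol, ligand or receptor, plus Tslp, Csf1, Cx3cl1, Ackr2 and Ackr3. The rule used symbols and no measured value, and it found 127 of 46517 genes, 54 of them receptors and 73 ligands or antagonists. The 57 members that reached a TPM of 1 in 2 or more libraries were tested, and the other 70 were not.

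Chemokines are small secreted proteins that guide leukocytes through G protein-coupled receptors, and atypical receptors such as ACKR3 and ACKR4 bind them without that signal and remove them. Interleukins act through receptor chains that pair on the cell surface and signal through JAK kinases and STAT factors, or, for the IL-1 and IL-17 families, through adaptors that lead to NF-kappaB. In skin, keratinocytes and follicle cells release several of these ligands constitutively, among them CCL27 and CXCL14, and the follicle is a site where resident T cells and Langerhans cells gather.

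The cells came from the back skin of males aged 70 postnatal days, in the second telogen (the resting phase of the hair cycle), and were sorted for integrin alpha 6 and CD34 while Sca-1 positive and DAPI positive cells were left out. Each of the 4 groups held 2 libraries, each with an animal number of its own in the title. All mice carried R26-YFPfl/fl, and the 3 knockout strains also carried Sox9-CreER. NFIB/X-dKO mice (animals 33 and 36) had both NFIBfl/fl and NFIXfl/fl, NFIB-cKO mice (81 and 85) had NFIBfl/fl, NFIX-cKO mice (32 and 88) had NFIXfl/fl together with NFIBfl/+, and WT mice (34 and 82) had NFIBfl/fl and NFIXfl/fl with no Cre. CreER is a recombinase active only in the presence of tamoxifen, here under the Sox9 promoter, so WT cells differ from the others in Cre as well as in deletion, and NFIX-cKO cells also carry a floxed NFIB allele. The knockout cells were further gated on YFP and the WT cells were not, so the gate and the genotype cannot be told apart in any comparison with WT.

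Gene-level TPM did not check the deletions, since it adds all exons. Nfib had 377 and 389 TPM in NFIB/X-dKO, 293 and 233 in NFIB-cKO, 199.97 and 148 in NFIX-cKO, and 229.6 and 209 in WT. Nfix had 125 and 148 TPM in NFIB/X-dKO, 154 and 147 in NFIB-cKO, 138 and 123 in NFIX-cKO, and 158 and 157 in WT. No knockout group was below WT past the test for its own target (the nearest, Nfix in NFIX-cKO, had a log2 change of -0.27 ± 0.13 (SE), adjusted p = 0.767 by limma). Nfib was past the limma test in the direction opposite to the labels, higher in NFIB/X-dKO than in NFIX-cKO (1.15 ± 0.18, adjusted p = 0.0467) and higher in NFIB/X-dKO and NFIB-cKO together than in NFIX-cKO and WT (0.70 ± 0.13, adjusted p = 0.0405). The group names therefore follow the labels throughout, and every direction is that of the libraries so labelled. Expected counts, held for 5 of the libraries, summed to 57173266 to 66854625. The animals fall into 2 number series, the 30s and the 80s, with both NFIB/X-dKO animals in the 30s, both NFIB-cKO animals in the 80s and 1 animal of each series in WT and NFIX-cKO. In bulk RNA, fewer cells of a type and less RNA per cell cannot be told apart.

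Most members were scarce, and a few ligands and receptor chains were abundant. Mean TPM over the 8 libraries reached 10 in 18 of the 127 members and 1 in 54, and 7 ligands were listed at 0 in every library. Of the 18 chemokine receptors 0 had a mean of at least 10 and 4 had a mean of at least 1, whereas 3 of the 23 CC ligands and 5 of the 14 CXC and CX3C ligands had a mean of at least 10. Cxcl14, a chemokine of epithelia, alone made up 88.9% and 90.1% of the members' summed TPM in NFIB/X-dKO, 87.4% and 86.6% in NFIB-cKO, 73.7% and 79.5% in NFIX-cKO, and 52.7% and 69.7% in WT. After it came Il11ra1 (mean 367), Ccl27a (199) and Il31ra (167), then Il17rc (70.9), Il13ra1 (64.8) and Il20rb (61.8). No member that failed the filter had a mean above 0.724.

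**Figure D1:**
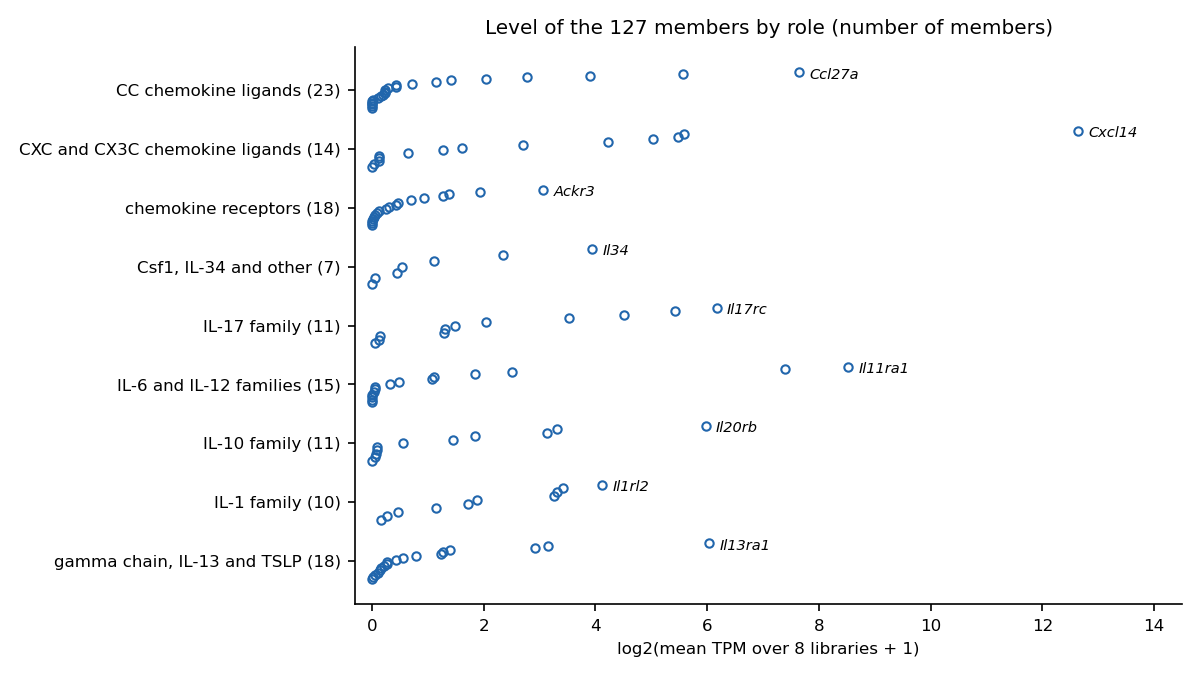
Mean level of the 127 members over the 8 libraries, as log2(mean TPM + 1) on the horizontal axis, in rows by role with the number of members in brackets and the most abundant member named. Cxcl14 stands far to the right, the chemokine receptors end at Ackr3, and most members lie near 0.

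Changes below are differences on the log2(TPM + 1) scale, given ± their standard error, from a limma fit of all 8 libraries, with p adjusted by Benjamini-Hochberg over the 15434 genes tested and a threshold of 0.05. In NFIB/X-dKO against WT, 6 of the 57 tested members passed (10.5%), where 2.88% of all 15434 tested genes did. The ligands Ccl27a, Ccl27b, Cxcl12 and Csf1 fell, and the ligand Cxcl14 and the receptor chain Il17rb rose. Ccl27a and Ccl27b are near-identical copies whose shared reads are split between rows, as set out below. The 6 calls are thus not independent, and the 10.5% counts that signal more than once. The median log2 change was 0.06 over the tested members and 0.16 over all genes tested. Dividing TPM by median-of-ratios factors moved the median of all genes by -0.158, and under that scaling 1 member was higher and 5 were lower, with Cxcl14 no longer past the test and Il20rb, a chain of the receptor for IL-20 and IL-24, past it. Over all genes the same scaling gave 200 higher and 240 lower, against 250 higher and 195 lower as deposited.

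**Figure D2:**
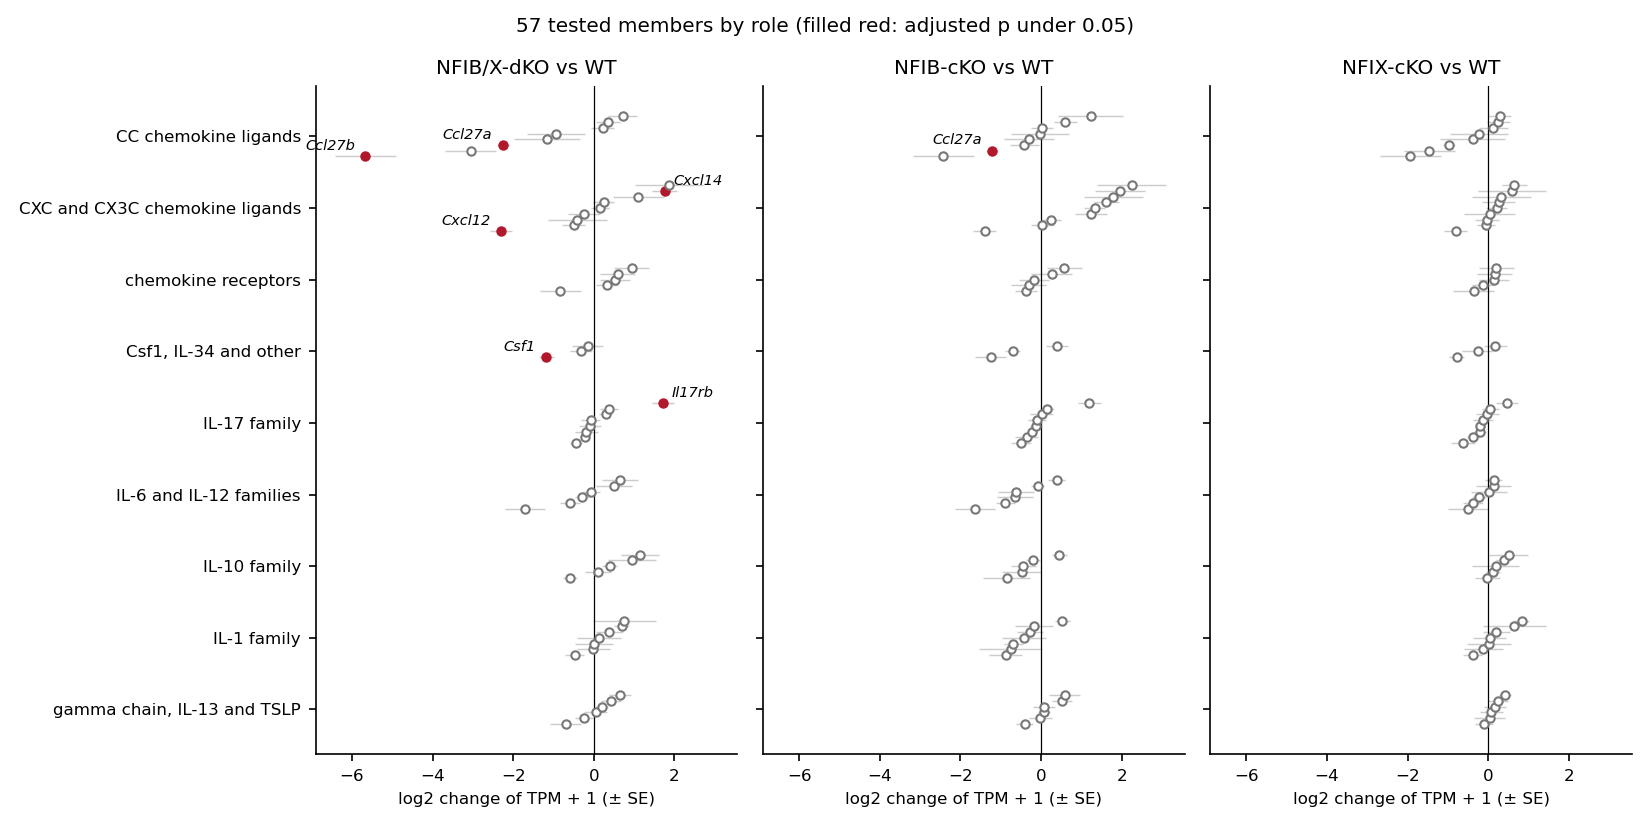
Difference from WT of the 57 tested members on the log2(TPM + 1) scale, with bars of 1 standard error, in rows by role and 1 panel for each knockout group. Filled red points passed the test (limma, adjusted p under 0.05), which were 6 in NFIB/X-dKO, 1 in NFIB-cKO and 0 in NFIX-cKO.

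CCL27 is a skin chemokine that draws memory T cells bearing CCR10. In mouse it is encoded by copies on chromosome 4 (GRCm38, GENCODE M21), namely Ccl27a (chr4:41769467-41774247, minus strand), Ccl27b (chr4:42655251-42656005, plus strand) and Gm13306 (chr4:42153436-42158839, plus strand), which is annotated as protein coding. Their coding sequences are shown because reads over shared stretches cannot be assigned to 1 copy. Below are bases 164 to 343 of the 360-base coding sequence in each, from GENCODE transcripts, with capitals at the 3 positions where any copy differs. Ccl27b and Gm13306 differ at 0 of the 360 bases and Ccl27a from either at 3, and the longest stretch shared by the 3 genes is 176 bases.
Ccl27a: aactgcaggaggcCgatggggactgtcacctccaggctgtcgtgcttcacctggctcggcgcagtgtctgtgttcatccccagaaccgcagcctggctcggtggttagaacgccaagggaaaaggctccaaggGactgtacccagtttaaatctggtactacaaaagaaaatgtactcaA
Ccl27b: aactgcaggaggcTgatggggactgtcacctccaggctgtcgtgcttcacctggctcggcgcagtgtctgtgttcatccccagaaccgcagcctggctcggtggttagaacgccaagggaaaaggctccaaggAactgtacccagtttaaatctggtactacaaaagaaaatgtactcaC
Gm13306: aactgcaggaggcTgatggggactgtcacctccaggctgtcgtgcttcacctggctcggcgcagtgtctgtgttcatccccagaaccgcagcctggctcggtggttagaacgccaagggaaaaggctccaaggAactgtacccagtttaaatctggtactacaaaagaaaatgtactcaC

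Ccl27a had 78.2 and 74.4 TPM in NFIB/X-dKO, 155 and 164 in NFIB-cKO, 191 and 184 in NFIX-cKO, and 323 and 423 in WT. It stood lowest in both NFIB/X-dKO libraries, highest in both WT libraries and between them in the single knockouts, with no overlap of NFIB/X-dKO or WT with any other group. By limma it fell in NFIB/X-dKO against WT, with a log2 change of -2.26 ± 0.15, adjusted p = 0.00185, and within the 30s (NFIB/X-dKO against WT 34) the log2 change was -2.07, adjusted p = 0.0174. Ccl27b had 4.4 and 0 TPM in NFIB/X-dKO, 19.3 and 22.97 in NFIB-cKO, 30.01 and 29.8 in NFIX-cKO, and 192 and 71.1 in WT. Its fall in NFIB/X-dKO against WT, a log2 change of -5.67 ± 0.76, adjusted p = 0.0146, did not pass without WT 34 (adjusted p = 0.0561) or within the 30s (adjusted p = 0.0898), and NFIB/X-dKO 36 is listed at 0. Gm13306, which is not matched by the symbol rule, had 42.99 and 43.7 TPM in NFIB/X-dKO, 213 and 148 in NFIB-cKO, 296 and 251 in NFIX-cKO, and 1020.2 and 753 in WT. It carried more TPM than Ccl27a in all libraries labelled WT and NFIX-cKO and less in all those of NFIB/X-dKO. How RSEM split the reads between copies sets each row, so the rows are uncertain singly.

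Summed over the 6 near-identical rows (the 3 above, Gm20878, and Gm21953 and Gm21586, both listed at 0), the copies stood at 129 ± 4.77 TPM in NFIB/X-dKO, at 370 ± 34.5 in NFIB-cKO, at 498 ± 38.3 in NFIX-cKO and at 1400 ± 204 in WT (SD, n = 2 each). The sum fell in every knockout group against WT by limma, with log2 changes of -3.42 ± 0.15 in NFIB/X-dKO (adjusted p = 0.000229), -1.91 ± 0.15 in NFIB-cKO (adjusted p = 0.00427) and -1.48 ± 0.15 in NFIX-cKO (adjusted p = 0.0186). It was also lower in NFIB/X-dKO than in NFIX-cKO (-1.94, adjusted p = 0.0047) and than in NFIB-cKO (-1.51, adjusted p = 0.0111). The non-additive contrast (the double knockout minus NFIB-cKO, less NFIX-cKO minus WT) was -0.03 ± 0.21 (adjusted p = 0.954). Ccr10, the receptor of CCL27, was listed between 0.43 and 0.90 TPM and was not tested.

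**Figure D3:**
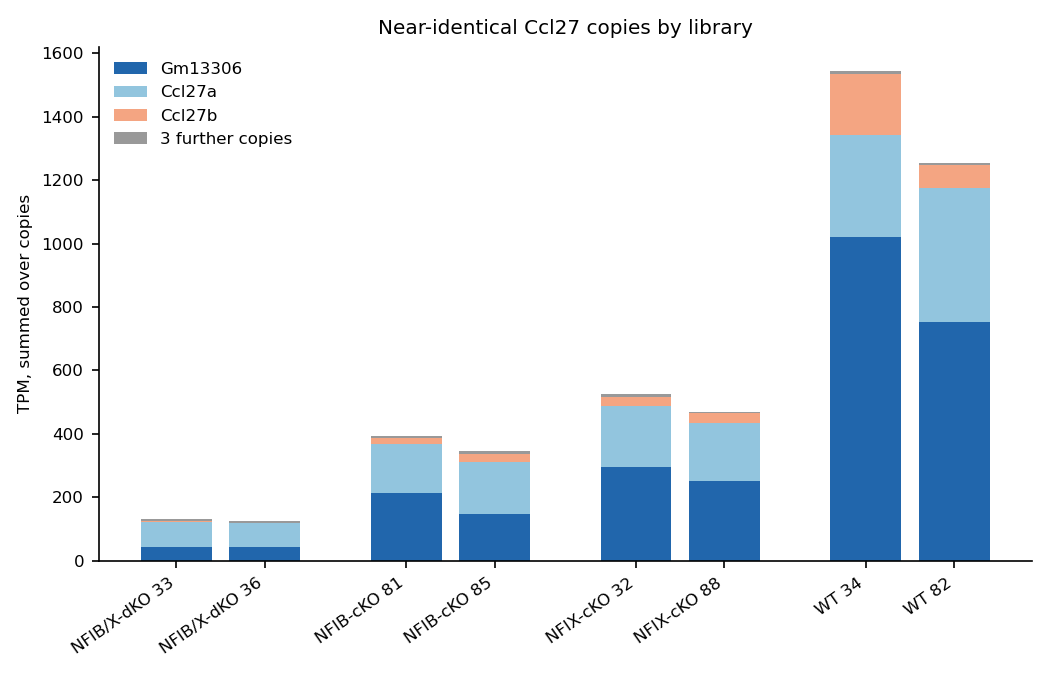
TPM of the near-identical Ccl27 rows stacked for each of the 8 libraries, from NFIB/X-dKO at the left to WT at the right. The summed bar is lowest in NFIB/X-dKO (132 and 125) and highest in WT (1543 and 1254), and Gm13306 is the tallest segment in both WT libraries.

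CXCL12 is the ligand of CXCR4 and is scavenged by ACKR3, and it holds haematopoietic cells in their niches. Cxcl12 (chr6:117168535-117181367, plus strand, GRCm38) had 17.04 and 16.3 TPM in NFIB/X-dKO, 35.1 and 29.5 in NFIB-cKO, 35.05 and 67.7 in NFIX-cKO, and 87.4 and 85.1 in WT. Both NFIB/X-dKO libraries lay below all others, both WT libraries above all others, and the NFIX-cKO pair was wide. It fell in NFIB/X-dKO against WT by limma, with a log2 change of -2.31 ± 0.28, adjusted p = 0.00978, and within the 30s the log2 change was -2.32, adjusted p = 0.0174. The call was lost without WT 82 (adjusted p = 0.0599), NFIB/X-dKO 33 (adjusted p = 0.0856) or NFIB/X-dKO 36 (adjusted p = 0.0938). Fibroblasts also make CXCL12. Of 8 fibroblast and dermal papilla markers 2 were tested. Col1a1 rose in NFIB/X-dKO against WT (1.97 ± 0.30, adjusted p = 0.0219 by limma), and Col1a2 did not pass, with a change of opposite sign (-1.63 ± 0.58, adjusted p = 0.223). The list's summed level ran from 55.8 to 68.3 TPM in NFIB/X-dKO, from 59 to 87 in NFIB-cKO, from 25.6 to 42.4 in NFIX-cKO and from 24.6 to 25.7 in WT. Without Col1a1 the order of NFIB/X-dKO and WT was the other way, at 2.48 to 3.21 TPM in NFIB/X-dKO, 3.88 to 9.65 in NFIB-cKO, 10.9 to 34.1 in NFIX-cKO and 9.01 to 12.3 in WT, nearly all of it Col1a2, and Pdgfra stood at 0.02 to 0.17 in all libraries. Their part in the Cxcl12 result was not tested.

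CXCL14 is made constitutively by epithelia and attracts monocytes and dendritic cell precursors. Cxcl14 (chr13:56288643-56296551, minus strand) had 8878 and 10234 TPM in NFIB/X-dKO, 8871 and 8446 in NFIB-cKO, 3919.5 and 4978 in NFIX-cKO, and 1978 and 4000 in WT. All 4 libraries of NFIB/X-dKO and NFIB-cKO lay above all 4 of NFIX-cKO and WT, and WT 34 was the lowest of all. By limma it rose in NFIB/X-dKO against WT, with a log2 change of 1.76 ± 0.31, adjusted p = 0.0358, and within the 30s the log2 change was 2.27, adjusted p = 0.0238. The call was lost under median-of-ratios scaling (1.58, adjusted p = 0.141) and without WT 34 (1.25, adjusted p = 0.0538), NFIB-cKO 81 (adjusted p = 0.0766), NFIB-cKO 85 (adjusted p = 0.0763), NFIB/X-dKO 33 (adjusted p = 0.194) or NFIB/X-dKO 36 (adjusted p = 0.245).

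The 250 bases upstream of Cxcl14 and Cxcl12 are shown because these ligands moved in opposite directions and both windows hold TTGGC, 1 arm of the palindrome that nuclear factor I proteins are known to bind. The sequences are from RefSeq (GRCm38.p6), read 5′ to 3′ toward the start site, at chr13:56296552-56296801 on the minus strand for Cxcl14 and chr6:117168285-117168534 on the plus strand for Cxcl12, with TTGGC on either strand (GCCAA on the strand shown) in capitals.
Cxcl14: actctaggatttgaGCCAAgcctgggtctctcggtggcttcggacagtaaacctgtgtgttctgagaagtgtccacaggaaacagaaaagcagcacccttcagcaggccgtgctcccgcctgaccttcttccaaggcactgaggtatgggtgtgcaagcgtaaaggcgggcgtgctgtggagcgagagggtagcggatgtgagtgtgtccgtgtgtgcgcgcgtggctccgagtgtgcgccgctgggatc
Cxcl12: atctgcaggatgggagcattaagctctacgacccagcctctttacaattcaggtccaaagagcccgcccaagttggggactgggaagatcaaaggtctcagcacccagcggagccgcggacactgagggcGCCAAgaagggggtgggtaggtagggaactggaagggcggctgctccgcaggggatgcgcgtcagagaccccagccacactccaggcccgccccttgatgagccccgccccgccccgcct
Each holds 1 match, on the opposite strand. Of the other called members, Il17rb and Csf1 have none in the same window, Ccl27a has a match in 1 of 3 annotated windows and Ccl27b in 2 of 4. Of 95 members with such a window 42 (44.2%) held TTGGC on either strand in at least 1 of their windows, as did 45.3% of 27025 genes, and none held the palindrome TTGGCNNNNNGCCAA, found in 0.0444% of genes. A match is only a run of letters, and a window without one says nothing of the factor.

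CSF1 is the growth factor of macrophages, which bind it through CSF1R, and IL-34 is the other ligand of that receptor and maintains Langerhans cells in the epidermis. Csf1 (chr3:107741048-107760469, minus strand) had 2.46 and 2.36 TPM in NFIB/X-dKO, 3.96 and 3.54 in NFIB-cKO, 3.78 and 3.21 in NFIX-cKO, and 6.52 and 6.95 in WT. The WT pair lay above all others and the NFIB/X-dKO pair below all others. It fell in NFIB/X-dKO against WT by limma, with a log2 change of -1.18 ± 0.18, adjusted p = 0.0233, and within the 30s the log2 change was -1.14, adjusted p = 0.0467. The call was lost with any 1 of 6 libraries left out (adjusted p from 0.0543 without WT 34 to 0.242 without NFIB/X-dKO 36, with WT 82, NFIB-cKO 81, NFIB-cKO 85 and NFIB/X-dKO 33 between). Il34 had 18.3 and 14.02 TPM in NFIB/X-dKO, 6.01 and 8.05 in NFIB-cKO, 22.8 and 9.46 in NFIX-cKO, and 20.5 and 15.6 in WT, lowest in the NFIB-cKO pair, and did not pass (a log2 change of -0.57 ± 0.27, adjusted p = 0.383 for NFIB/X-dKO and NFIB-cKO against NFIX-cKO and WT). Csf1r itself stood between 0.20 and 0.98 TPM, at 0.85 and 0.82 in NFIB/X-dKO and 0.60 and 0.54 in WT. The 12 macrophage and monocyte markers summed to 16.8 to 16.9 TPM in NFIB/X-dKO and 24.2 to 24.5 in WT, most of it Cd68 (14.9 and 15.2 in NFIB/X-dKO, 23.08 and 23.07 in WT). The other 11 summed to 1.65 to 1.88 TPM in NFIB/X-dKO and 1.09 to 1.4 in WT, with Mrc1 at 0 in all libraries. Il3ra, the alpha chain of the IL-3 receptor, had 0.66 and 0.56 TPM in NFIB/X-dKO, 1.31 and 2.02 in NFIB-cKO, 0.83 and 1.82 in NFIX-cKO, and 0.99 and 1.02 in WT, and did not pass.

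**Figure D4:**
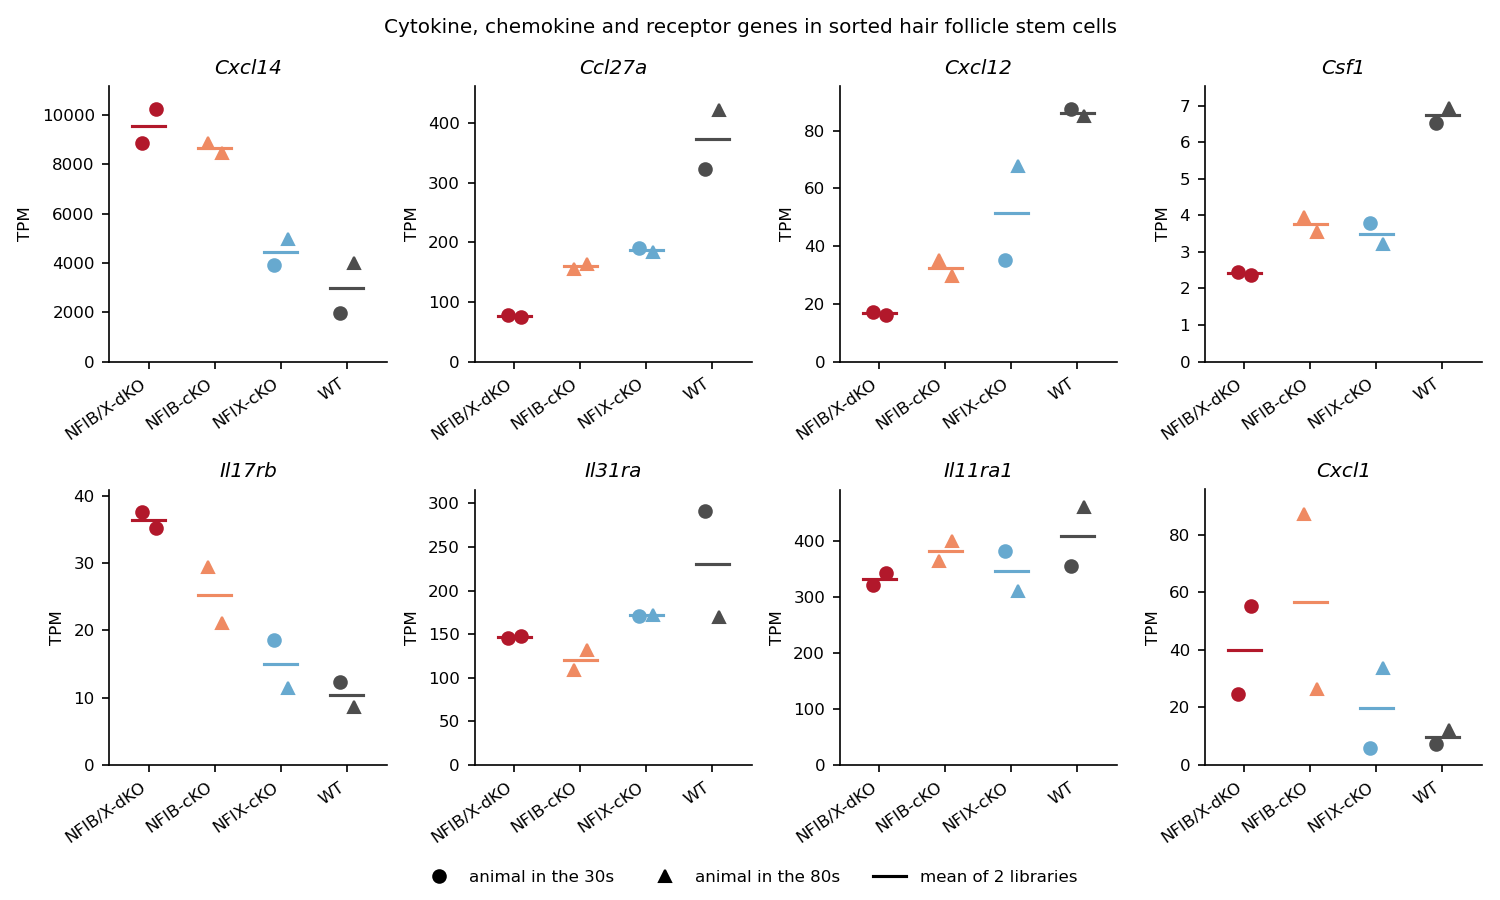
TPM of 8 members in each library (1 point each, circles for animals in the 30s and triangles for those in the 80s, bar at the mean of 2 libraries), with NFIB/X-dKO at the left and WT at the right of every panel and all axes from 0. Ccl27a, Cxcl12 and Csf1 are lowest in NFIB/X-dKO, and Cxcl14 and Il17rb are highest there. For Il11ra1 and Cxcl1 the NFIX-cKO pair overlaps with every other group.

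Of the 23 CC chemokine ligands 8 were tested, and those other than the Ccl27 copies did not pass. Ccl7, a monocyte attractant, had 0.48 and 0.21 TPM in NFIB/X-dKO, 10.1 and 6.43 in NFIB-cKO, 1.08 and 6.86 in NFIX-cKO, and 6.8 and 14.9 in WT. It was lowest in the NFIB/X-dKO pair, and its log2 change against WT was -3.06 ± 0.63, adjusted p = 0.055. With a series covariate in the fit it was past the test (-2.32, adjusted p = 0.0234). Ccl28, a mucosal ligand of CCR10 and CCR3, had 1.06 and 1.7 TPM in NFIB/X-dKO, 0.1 and 0.06 in NFIB-cKO, 0.84 and 0.34 in NFIX-cKO, and 0.96 and 0.05 in WT. Ccl28 met the filter only through the NFIB/X-dKO pair. The Ccl21 copies, ligands of CCR7 in lymphatic vessels 99.31% to 100% identical to one another over at least 200 aligned bases, summed to at most 0.52 TPM in any library. Of these, Ccl21a was listed at 0.44 and 0.32 TPM in NFIB/X-dKO, 0.12 and 0 in NFIB-cKO, 0.39 and 0 in NFIX-cKO, and 0.15 and 0 in WT, and Ccl21b at 0.01 TPM in NFIB/X-dKO 36 and 0 elsewhere.

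Of the 14 CXC and CX3C ligands 9 were tested, and Cxcl14 and Cxcl12 were the 2 that passed. Cxcl1, a neutrophil attractant acting on CXCR2, had 24.6 and 55.3 TPM in NFIB/X-dKO, 87.03 and 26.5 in NFIB-cKO, 6.03 and 33.8 in NFIX-cKO, and 7.18 and 12.1 in WT. Both WT libraries lay below all those of NFIB/X-dKO and NFIB-cKO, and the wide NFIX-cKO pair overlapped with every other group. The comparison of NFIB/X-dKO and NFIB-cKO with NFIX-cKO and WT gave a log2 change of 1.76 ± 0.60, adjusted p = 0.213 by limma. Cxcl5, another CXCR2 ligand, had 1.31 and 1.2 TPM in NFIB/X-dKO, 7.79 and 0.87 in NFIB-cKO, 0.1 and 0.04 in NFIX-cKO, and 0.04 and 0.05 in WT. All 4 libraries of NFIB/X-dKO and NFIB-cKO lay above all 4 of NFIX-cKO and WT, which had at most 0.10 TPM. Cxcl5 met the filter only through libraries of NFIB/X-dKO and NFIB-cKO, so this separation cannot be taken as support for a difference. The test of that comparison did not pass (1.52 ± 0.44, adjusted p = 0.158 by limma). Cxcl2, of the same group, had 0.12 and 0.45 TPM in NFIB/X-dKO, 1.79 and 1.59 in NFIB-cKO, 0.07 and 0.42 in NFIX-cKO, and 0.03 and 0.11 in WT, with a log2 change of 0.69 ± 0.18, adjusted p = 0.123 for the same comparison. Cxcl2 met the filter only through the NFIB-cKO pair. Cxcl16, the membrane-bound ligand of CXCR6, had 34.9 and 29.97 TPM in NFIB/X-dKO, 38.9 and 57.4 in NFIB-cKO, 39.8 and 51.02 in NFIX-cKO, and 35.4 and 59.9 in WT, with overlapping groups.

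Of the 18 chemokine receptors 5 were tested and 0 passed in NFIB/X-dKO against WT. Ackr3 had 7.62 and 13.5 TPM in NFIB/X-dKO, 7.22 and 8.17 in NFIB-cKO, 8.96 and 3.51 in NFIX-cKO, and 6.34 and 3.65 in WT, and its log2 change there was 0.94 ± 0.43, adjusted p = 0.328. Cxcr4, the signalling receptor of CXCL12, had 1.38 and 1.28 TPM in NFIB/X-dKO, 2.77 and 5.58 in NFIB-cKO, 0.86 and 4.58 in NFIX-cKO, and 3.03 and 3.26 in WT. Neither receptor of CXCL12 thus differed past the test where its ligand fell. Ccr4, which skin-homing T cells carry, had 1.62 and 1.39 TPM in NFIB/X-dKO, 0.37 and 0.31 in NFIB-cKO, 1.82 and 0.22 in NFIX-cKO, and 1.15 and 0.28 in WT. It was higher in the 30s than in the 80s, as set out further on. Ackr4, which lies outside the symbol rule and scavenges CCL19, CCL21 and CCL25, had 33.7 and 25.9 TPM in NFIB/X-dKO, 27.1 and 25.2 in NFIB-cKO, 93.7 and 87.5 in NFIX-cKO, and 143 and 70.5 in WT. It fell in NFIB/X-dKO against WT by limma (-1.73 ± 0.31, adjusted p = 0.0358), and the NFIB/X-dKO pair overlapped with NFIB-cKO but not with NFIX-cKO or WT.

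IL-17RB pairs with IL-17RA to bind IL-25 and also binds IL-17B. Il17rb (chr14:29996135-30008896, minus strand) had 37.5 and 35.2 TPM in NFIB/X-dKO, 29.4 and 21.2 in NFIB-cKO, 18.6 and 11.5 in NFIX-cKO, and 12.3 and 8.61 in WT. The NFIB/X-dKO pair was the highest and the NFIB-cKO pair next, above NFIX-cKO and WT, which overlapped. It rose in NFIB/X-dKO against WT by limma, with a log2 change of 1.73 ± 0.28, adjusted p = 0.0264, and within the 30s the log2 change was 1.49, adjusted p = 0.026. The call was lost without WT 82 (adjusted p = 0.12), NFIB/X-dKO 33 (adjusted p = 0.194) or NFIB/X-dKO 36 (adjusted p = 0.189). T cells can carry IL-17RB too. Of 14 T cell markers 6 were tested and Trbc2 rose (1.195 ± 0.20, adjusted p = 0.0273 by limma). The list's summed level ran from 115 to 118 TPM in NFIB/X-dKO, from 94.9 to 154 in NFIB-cKO, from 62.2 to 71.4 in NFIX-cKO and from 39.2 to 50.3 in WT, most of it Thy1 and Trbc2. The other 12 markers summed to 10.9 to 12.9 TPM in NFIB/X-dKO, 8.03 to 9.13 in NFIB-cKO, 4.86 to 13.1 in NFIX-cKO and 6.87 to 7.14 in WT. Among the CD3 chains, Cd3e had 0.54 and 0.53 TPM in NFIB/X-dKO against 0.58 and 0.64 in WT. Cd3d had 0.71 and 0.69 against 0.66 and 0.70, and Cd3g 1.69 and 1.29 against 1.37 and 0.76. Higher in NFIB/X-dKO than in WT were Trbc1 (5.79 and 5.91 against 1.97 and 1.38) and Thy1 (52.3 and 56.7 against 8.99 and 23.6). Neither passed by limma (1.37 ± 0.34, adjusted p = 0.1 for Trbc1, and 1.82 ± 0.52, adjusted p = 0.144 for Thy1). The part of T cells in the Il17rb result was not tested.

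The other 7 tested members of the IL-17 family did not pass. Il17rc, which pairs with IL-17RA for IL-17A and IL-17F, had 69.2 and 66.02 TPM in NFIB/X-dKO, 65.5 and 70.1 in NFIB-cKO, 73.1 and 65.2 in NFIX-cKO, and 79.8 and 78.4 in WT. Il17re, the chain for IL-17C, had 46.3 and 51.3 TPM in NFIB/X-dKO, 48.1 and 40.9 in NFIB-cKO, 37.6 and 31.03 in NFIX-cKO, and 41.3 and 37.97 in WT. Il17ra, the shared chain, had 8.57 and 9.2 TPM in NFIB/X-dKO, 10.8 and 11.9 in NFIB-cKO, 9.04 and 9.68 in NFIX-cKO, and 12.3 and 12.6 in WT, and its log2 change in NFIB/X-dKO against WT was -0.45 ± 0.15, adjusted p = 0.207. The ligand genes were scarce, with Il25 at 0 to 0.26 TPM and Il17b at 1.07 to 2.04 TPM.

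Of the 15 members of the IL-6 and IL-12 families 6 were tested and 0 passed. IL-31RA is the receptor of the itch cytokine IL-31, and its gene Il31ra (chr13:112519898-112594360, minus strand) had 146 and 148 TPM in NFIB/X-dKO, 109 and 131 in NFIB-cKO, 171 and 172 in NFIX-cKO, and 292 and 169 in WT. NFIB/X-dKO and NFIB-cKO lay below NFIX-cKO and WT with no overlap, but WT 34 stood far above WT 82, and the comparison of these pairs of groups gave a log2 change of -0.55 ± 0.17, adjusted p = 0.177, which passed without WT 82 (adjusted p = 0.0251). Its ligand Il31 was listed at 0 in every library. Il11ra1, the specific chain of the IL-11 receptor, had 321 and 342 TPM in NFIB/X-dKO, 365 and 399.6 in NFIB-cKO, 381 and 311 in NFIX-cKO, and 355 and 461 in WT, with overlapping groups. Il11ra2 and Gm13305 are copies of it, identical to each other over 1299 aligned bases and 98.999% and 98.874% identical to Il11ra1, and Il11ra2 had 1.38 and 0.32 TPM in NFIB/X-dKO, 1.14 and 0.65 in NFIB-cKO, 4.09 and 2.3 in NFIX-cKO, and 8.14 and 2.69 in WT. The annotated 3′ end of Gm13305 (chr4:42158842-42168603, minus strand) lies 3 bases past that of Gm13306, which is on the plus strand. Gm13305 had 3.81 and 2.86 TPM in NFIB/X-dKO, 14.8 and 11.9 in NFIB-cKO, 24.9 and 17.4 in NFIX-cKO, and 76.3 and 47.1 in WT. Its log2 change in NFIB/X-dKO against WT was -3.82 ± 0.28 (adjusted p = 0.00252 by limma). Summed over the 3 rows, the Il11ra copies had 336 ± 13.7 TPM in NFIB/X-dKO and 475 ± 50.3 in WT (SD, n = 2 each), and their log2 change of -0.50 did not pass (adjusted p = 0.156). Il6ra, the IL-6 chain, had 7.4 and 6.99 TPM in NFIB/X-dKO, 2.23 and 2.55 in NFIB-cKO, 7.65 and 2.15 in NFIX-cKO, and 5.28 and 3.28 in WT, and did not pass.

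Of the 11 members of the IL-10 family 5 were tested and 0 passed. Il20rb had 48.5 and 41.3 TPM in NFIB/X-dKO, 66.8 and 52.8 in NFIB-cKO, 83.1 and 66.3 in NFIX-cKO, and 68.8 and 67.01 in WT. It was lowest in the NFIB/X-dKO pair, and the comparison of NFIB/X-dKO and NFIB-cKO with NFIX-cKO and WT gave a log2 change of -0.45 ± 0.12, adjusted p = 0.134, which under median-of-ratios scaling was -0.56, adjusted p = 0.046. Il20ra, its partner for IL-19, IL-20 and IL-24, had 4.99 and 4.35 TPM in NFIB/X-dKO, 0.41 and 0.87 in NFIB-cKO, 5.14 and 0.82 in NFIX-cKO, and 3.24 and 1.03 in WT. Il22ra2, a soluble decoy for IL-22, had 3.26 and 3.4 TPM in NFIB/X-dKO, 0.39 and 0.4 in NFIB-cKO, 3.63 and 0.66 in NFIX-cKO, and 1.5 and 0.52 in WT. In both, the 30s animals were the high ones within NFIX-cKO and WT. Il10rb, the chain shared by the receptors for IL-10 and IL-22, whose transcripts overlap those of Gm21970, had 8.99 and 9.84 TPM in NFIB/X-dKO, 8.66 and 11.2 in NFIB-cKO, 8.68 and 10 in NFIX-cKO, and 6.51 and 7.33 in WT, with a log2 change of 0.396 ± 0.19, adjusted p = 0.338 in NFIB/X-dKO against WT.

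Of the 10 IL-1 family members 7 were tested and 0 passed. Il1rn, the antagonist of IL-1 receptors, had 11.3 and 10.4 TPM in NFIB/X-dKO, 9.02 and 10.2 in NFIB-cKO, 13.8 and 10.5 in NFIX-cKO, and 5.99 and 6.72 in WT. All 6 knockout libraries lay above both WT libraries, and the log2 change in NFIB/X-dKO was 0.69 ± 0.19, adjusted p = 0.121. Il1r1, the signalling receptor, had 12.5 and 8.77 TPM in NFIB/X-dKO, 5.26 and 7.46 in NFIB-cKO, 12.2 and 6.75 in NFIX-cKO, and 9.35 and 6.44 in WT. Il33, an alarmin, had 2.84 and 2.34 TPM in NFIB/X-dKO, 1.35 and 0.63 in NFIB-cKO, 4.67 and 1.4 in NFIX-cKO, and 3.05 and 2.2 in WT. Il18r1, a chain of the IL-18 receptor, had 1.17 and 0.9 TPM in NFIB/X-dKO, 0.59 and 0.92 in NFIB-cKO, 1.42 and 0.92 in NFIX-cKO, and 1.65 and 2.0 in WT. NFIB/X-dKO and NFIX-cKO overlapped in all 3 genes.

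Of the 18 members of the gamma chain, IL-13 and TSLP group 6 were tested and 0 passed. Il13ra1, a chain of the receptor for IL-4 and IL-13, had 66.3 and 65.02 TPM in NFIB/X-dKO, 63.7 and 56.1 in NFIB-cKO, 75.3 and 77.9 in NFIX-cKO, and 63.9 and 50.6 in WT. Il4ra, its partner, had 3.36 and 3.38 TPM in NFIB/X-dKO, 8.56 and 10.9 in NFIB-cKO, 5.41 and 7.21 in NFIX-cKO, and 3.67 and 9.76 in WT. Both were detected in every library. Il15, a survival factor for T and NK cells, had 1.83 and 1.86 TPM in NFIB/X-dKO, 1.74 and 2.35 in NFIB-cKO, 1.97 and 1.11 in NFIX-cKO, and 1.0 and 1.23 in WT. Il15ra, which presents it, had 7.68 and 7.15 TPM in NFIB/X-dKO, 7.44 and 5.69 in NFIB-cKO, 8.8 and 7.72 in NFIX-cKO, and 10.6 and 7.53 in WT. Il4 was near the filter, with 2.36 and 2.02 TPM in NFIB/X-dKO, 1.29 and 0.99 in NFIB-cKO, 1.38 and 1.2 in NFIX-cKO, and 1.53 and 0.63 in WT. The log2 changes of these 5 in NFIB/X-dKO against WT, or for Il15 and Il15ra in the comparison by NFIB, had adjusted p between 0.285 for Il4 and 0.491 for Il13ra1. Tslp was listed at 0.06 to 0.46 TPM and was not tested.

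In NFIB-cKO against WT 1 member passed, Ccl27a (-1.21 ± 0.15, adjusted p = 0.0213), where 0.719% of all genes did. The call was lost within the 80s (-1.399, adjusted p = 0.105), under median-of-ratios scaling (adjusted p = 0.0897) and without NFIB-cKO 81 (adjusted p = 0.116), NFIB-cKO 85 (0.159), NFIB/X-dKO 33 (0.0718) or NFIB/X-dKO 36 (0.0709). In NFIX-cKO against WT 0 members passed by limma, where 0.149% of all genes did. In that comparison 7 of the 57 members had an unadjusted p under 0.05, against 6.81% of all genes. The log2 change of Ccl27a there was -0.97 ± 0.15 (adjusted p = 0.115), and it was -0.75 between the 30s animals and -1.195 between the 80s animals. Cxcl12 and Csf1 had log2 changes of -0.81 ± 0.28 (adjusted p = 0.645) and -0.79 ± 0.18 (adjusted p = 0.346) in NFIX-cKO, and -1.40 ± 0.28 (adjusted p = 0.0909) and -0.70 ± 0.18 (adjusted p = 0.153) in NFIB-cKO. These comparisons share the WT libraries, so their values are set side by side only.

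The groups labelled as lacking NFIB (NFIB/X-dKO and NFIB-cKO) were also set against those keeping it (NFIX-cKO and WT), a comparison in which each side holds 2 animals of each series. Of the 57 members 5 passed (8.77%), where 2.48% of all genes did. Ccl27a (-1.25 ± 0.10, adjusted p = 0.00401), Ccl27b (-3.08 ± 0.54, adjusted p = 0.0357) and Cxcl12 (-1.45 ± 0.20, adjusted p = 0.0168) fell, and Cxcl14 (1.36 ± 0.22, adjusted p = 0.0293) and Il17rb (1.23 ± 0.20, adjusted p = 0.0284) rose. Since Ccl27a and Ccl27b share reads, the 5 calls are not independent, and the 8.77% counts that signal more than once. Under median-of-ratios scaling Cxcl14 did not pass (adjusted p = 0.119) and Il20rb did, and all genes split into 149 higher and 176 lower, against 229 higher and 153 lower as deposited. Ccl27a passed with any 1 library left out, and the number of members past the test was then 1 without NFIB/X-dKO 36 or NFIB-cKO 81, 2 without NFIB/X-dKO 33 or NFIB-cKO 85, 3 without NFIX-cKO 32, NFIX-cKO 88 or WT 34, and 4 without WT 82. Within the 30s and within the 80s, with 4 libraries each, 0 passed by limma, and the log2 changes were -1.69 and -0.80 for Ccl27a, -5.06 and -1.095 for Ccl27b, -1.68 and -1.21 for Cxcl12, 1.78 and 0.96 for Cxcl14 and 1.21 and 1.25 for Il17rb. Csf1 did not pass here (-0.55 ± 0.13, adjusted p = 0.0863).

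In NFIB/X-dKO against NFIX-cKO 1 member passed by limma, Ccl27a (-1.29 ± 0.15, adjusted p = 0.0217), where 0.784% of all genes did, and the call was lost within the 30s (adjusted p = 0.0536), under median-of-ratios scaling (adjusted p = 0.0507) and without any 1 library of the knockout groups (adjusted p from 0.0566 without NFIX-cKO 32 to 0.27 without NFIB/X-dKO 36). On expected counts with edgeR's quasi-likelihood test 0 of 81 members passed, where 0.322% of 18349 genes did. There 19 of the 81 members had an unadjusted p under 0.05, against 14.7% of all genes. DESeq2 called 8 of 73 members with an adjusted p, where it called 4.86% of 17281 genes. Ccl27a had 1311 and 1272 expected counts in NFIB/X-dKO and 3066 and 3370 in NFIX-cKO, a log2 change of -1.40 (adjusted p = 0.0584 by edgeR). Cxcl5 had 72.4 and 69.7 expected counts in NFIB/X-dKO and 6.06 and 3.03 in NFIX-cKO, a log2 change of 3.88 (adjusted p = 0.0911 by edgeR).

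In NFIB/X-dKO against NFIB-cKO 0 members passed by limma, where 0.227% of all genes did. An unadjusted p under 0.05 was reached by 18 of the 57 members, against 17.2% of all genes. The groups of that pair are also the 2 animal series, which cannot be told apart from genotype there. In the non-additive contrast 0 members passed by limma, where 0.117% of all genes did. In that contrast 6 of the 57 members had an unadjusted p under 0.05, against 9.43% of all genes. Its log2 value was -0.08 ± 0.21 for Ccl27a, -0.10 ± 0.40 for Cxcl12, -0.51 ± 0.44 for Cxcl14, 0.05 ± 0.39 for Il17rb and 0.31 ± 0.26 for Csf1, and a miss of the threshold does not show the changes to be additive.

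The animal series gave more calls among the members than any genotype comparison, at a share close to that of all genes. With genotype in the fit, 10 of the 57 members differed between the 80s and the 30s (17.5%), where 15.8% of all genes did, a comparison added after the values were seen. Ccl2 (2.12 ± 0.14, adjusted p = 0.00998), Cxcl10 (1.72 ± 0.34, adjusted p = 0.0352) and Ccl7 (1.47 ± 0.29, adjusted p = 0.0356), inflammatory attractants of monocytes and, for CXCL10, of T cells, were higher in the 80s. Ccl2 had 4.53 and 4.08 TPM in NFIB/X-dKO, 24.8 and 29.1 in NFIB-cKO, 3.55 and 16.99 in NFIX-cKO, and 4.43 and 24.8 in WT. Cxcl10 had 1.82 and 1.72 TPM in NFIB/X-dKO, 7.76 and 17.4 in NFIB-cKO, 1.58 and 7.12 in NFIX-cKO, and 0.97 and 5.81 in WT. In both, each 80s animal lay above every 30s animal. Lower in the 80s were Il1rl2, the IL-36 receptor (-1.36 ± 0.20, adjusted p = 0.0261), Il20ra, Il22ra1, Il22ra2, Il6ra and Ccr4 among others, with log2 changes of -1.41 to -0.69. Il1rl2 had 19.9 and 15.4 TPM in NFIB/X-dKO, 10.02 and 13.6 in NFIB-cKO, 28.3 and 9.09 in NFIX-cKO, and 24.5 and 10.3 in WT. Only the WT and NFIX-cKO pairs, with an animal of each series, inform this comparison, and the 6 members called in NFIB/X-dKO against WT were not among the 10. What the number series stands for is not given in the labels.

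**Figure D5:**
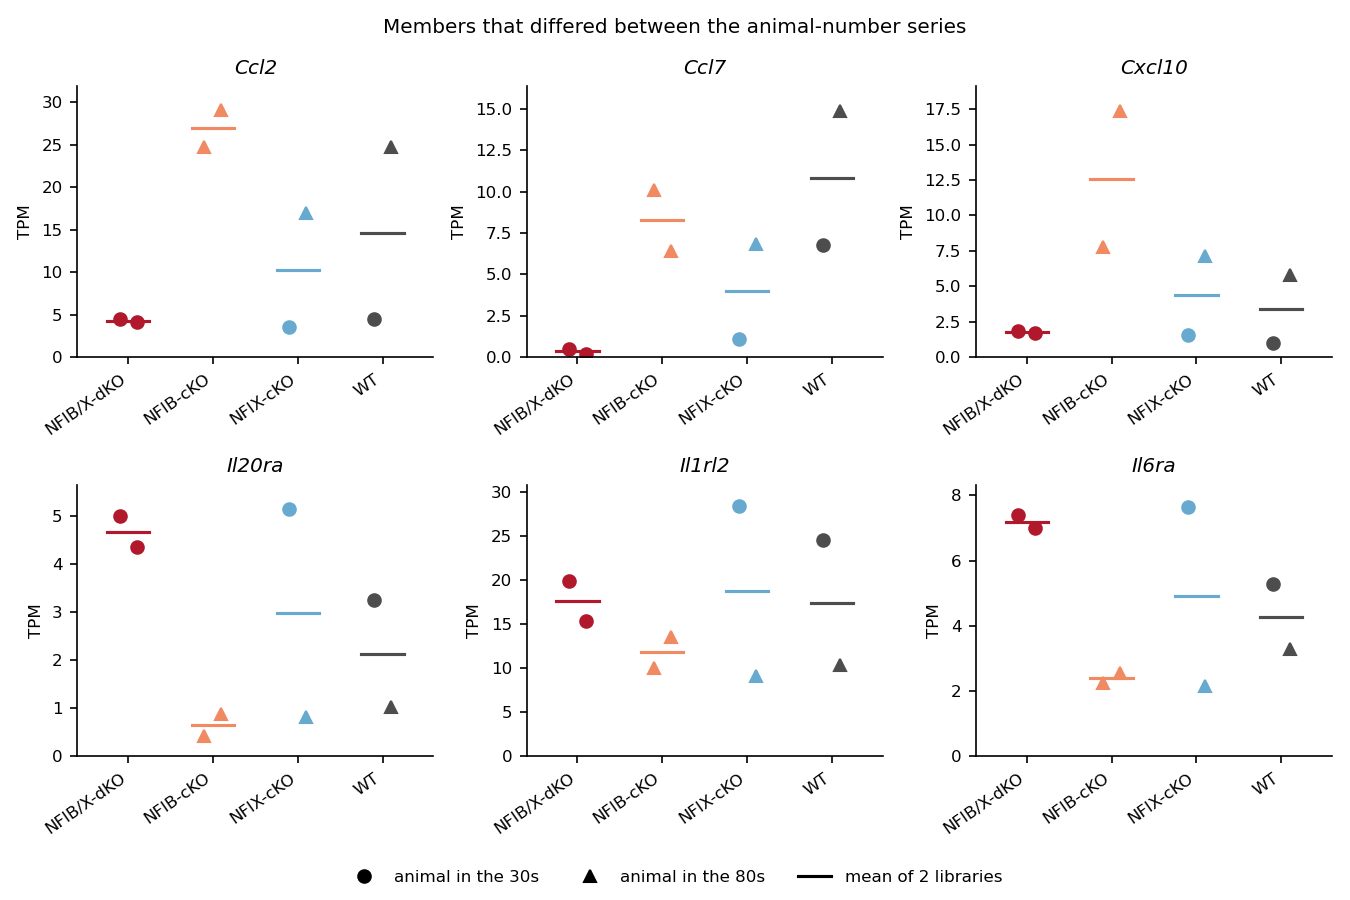
TPM of 6 members that differed between animal series, in each library (circles for the 30s, triangles for the 80s, bar at the mean of 2 libraries), with NFIB/X-dKO at the left and WT at the right. Within WT and NFIX-cKO the triangle is above the circle for Ccl2, Ccl7 and Cxcl10 and below it for Il20ra, Il1rl2 and Il6ra.

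The signalling genes behind these receptors were set beside all genes tested, of which 2.88% passed in NFIB/X-dKO against WT. Of 24 tested accessory receptors and ligands outside the rule, 0 rose and 1 fell in NFIB/X-dKO against WT (Ackr4), with a median log2 change of 0. Of 23 tested JAK-STAT and SOCS genes 0 passed by limma (median 0.16), and the smallest p values belonged to Stat5a (0.86 ± 0.26, adjusted p = 0.165), Ptpn11 (0.50 ± 0.18, adjusted p = 0.224), Cish (1.201 ± 0.49, adjusted p = 0.284) and Jak2 (0.37 ± 0.17, adjusted p = 0.315). Of 28 tested NF-kappaB and IL-1 or IL-17 receptor signalling genes 0 passed (median 0.01), with Relb (-0.92 ± 0.21, adjusted p = 0.0765), Nfkbiz (-0.995 ± 0.29, adjusted p = 0.153), Tollip (0.43 ± 0.15, adjusted p = 0.224) and Nfkbie (-0.51 ± 0.20, adjusted p = 0.266) at the smallest p. The median over all tested genes was 0.16. In the comparison by NFIB, Ackr4 fell (-1.74 ± 0.22, adjusted p = 0.0123 by limma) and 0 genes of the JAK-STAT and NF-kappaB lists passed, where 2.48% of all genes did. By counts, 1 of 31 tested accessory genes passed in NFIB/X-dKO against NFIX-cKO, where 0.322% of all genes did. It was Cntfr, which fell (a log2 change of -2.72, adjusted p = 0.0457 by edgeR).

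Markers of the sorted cells and of neighbours moved beside these results. In NFIB/X-dKO against WT, 4 of 12 hair follicle stem cell markers fell (Krt24, Lhx2, Lgr5 and Foxc1), where 2.88% of all genes passed in either direction. The list summed to 24368 and 26917 TPM in NFIB/X-dKO and 34449 and 29008 in WT, most of it Krt5 and Krt15. Cd34, a marker of the sort, stood at 811 to 1144 TPM in all libraries. Itga6, the other, had 202 and 218 TPM in NFIB/X-dKO and 143 and 124 in WT. It was higher in NFIB/X-dKO but did not pass (0.65 ± 0.16, adjusted p = 0.0873 by limma). The share of stem cells in each library was not tested. Of 8 sebaceous gland markers 6 fell in NFIB/X-dKO against WT, beside the same 2.88% of all genes. The list summed to 374 to 377 TPM in NFIB/X-dKO and 485 to 638 in WT. Most of the NFIB/X-dKO sum was Mgst1 (314 and 324 TPM, against 243 and 239 in WT). Mgst1 changed the other way and did not pass (0.40 ± 0.11, adjusted p = 0.132 by limma). Of 9 Langerhans and dendritic cell markers 5 were tested and 0 passed, with sums of 75.7 to 76.5 TPM in NFIB/X-dKO, 24.6 to 31 in NFIB-cKO, 33 to 105 in NFIX-cKO and 59.8 to 78.1 in WT. The sum was lowest in the NFIB-cKO pair, with NFIX-cKO 88, also of the 80s, next at 33.03. The 10 pan-leukocyte and mast cell markers summed to 8.52 to 8.98 TPM in NFIB/X-dKO and 7.15 to 7.44 in WT, with Cpa3 at 0 in all libraries and Ptprc at 0.11 to 0.61 TPM. Endothelial markers summed to 2.75 to 2.91 TPM in NFIB/X-dKO and 1.76 to 2.42 in WT, and melanocyte markers to 79.1 to 85.5 in NFIB/X-dKO and 67.5 to 85.3 in WT. Most of the melanocyte sum was Mitf (53.4 and 60.1 TPM in NFIB/X-dKO, 57.1 and 62.95 in WT). Tyrp1 had 7.23 and 6.13 TPM in NFIB/X-dKO and 1.6 and 3.74 in WT, and did not pass (1.13 ± 0.31, adjusted p = 0.13 by limma). Dct and Mlana also lay above WT in both NFIB/X-dKO libraries, Pmel and Tyr overlapped, and none passed. Suprabasal epidermal markers summed to 4082 to 4259 TPM in NFIB/X-dKO and 2399 to 3242 in WT. Their sum too was lowest in the NFIB-cKO pair (1920 and 1880), with NFIX-cKO 88 next at 1982. The 8 genes of that list fill 15 rows, since Flg has more than 1. Of 14 tested rows, 8 were lower in the 80s than in the 30s, some of them rows of Flg. Over all genes 1937 of 15434 were lower there. The part of these cells in the members' changes was not tested.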

How the data were processed

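Per the labels, TRIzol LS and Direct-zol RNA went into TruSeq mRNA libraries read as paired ends on HiSeq instruments. The authors deposited TPM for 8 libraries, and gene tables with expected counts for 5 (both NFIB/X-dKO, both NFIX-cKO and NFIB-cKO 85), whose TPM equalled the shared table (largest difference 0). Per the submitters' processing notes, RSEM 1.2.30 and Bowtie2 2.2.9 were used with mm10 (GRCm38). The sources used here do not give the annotation release or strand setting. The 92 spike-in rows held 0 TPM, and 0 columns were left unmapped. The depth of the 3 libraries without expected counts (WT 34, WT 82 and NFIB-cKO 81) is unknown, so no counting interval was computed.

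The tests were run with limma 3.58.1 under R 4.3.3, with a variance trend, on log2(TPM + 1) of the 15434 genes that reached a TPM of 1 in 2 or more libraries. All 8 libraries entered 1 fit (4 residual and 3.1 prior degrees of freedom), p was adjusted by Benjamini-Hochberg, and the threshold was 0.05. The pseudocount of 1 understates changes of weakly expressed genes. Expected counts, rounded, were tested with edgeR 4.0.16 (quasi-likelihood, TMM, filterByExpr) for NFIB/X-dKO against NFIX-cKO, with DESeq2 1.42.0 as an alternative. Both fits were tested on simulated data. Near-identical copies were found by aligning transcripts (at least 95% identity over at least 200 bases). The replicates are separate animals by their numbers.

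Named with a value in each library were the members past the test in any comparison, the 12 with the highest mean, up to 4 per role with the smallest p in NFIB/X-dKO against WT or in the comparison by NFIB, and the copies of Ccl27, Ccl21 and Il11ra. Members named for the animal series were chosen after their values were seen. Values of 1 member that falls under these rules are not reported here. Pathway genes were named where they passed in a genotype comparison. In lists with no such call, those with the 4 smallest p values in NFIB/X-dKO against WT were named. The members and lists were chosen with earlier results of these data known. Alternatives were the pseudocount, filters, scaling, fitting only the compared groups, a series covariate, fits within a series, summed copies and leaving out each library.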

Additional observations from a re-analysis of the deposited data

How the results depend on the processing

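With 2 libraries a group the calls are fragile, and 3 libraries have no depth. Of 689 alternative values for single members, 595 kept direction and side of the threshold, 84 kept direction but lost the call, 10 gained it and none of these reversed. The number of members past the test was 6 for NFIB/X-dKO against WT and 2 with no filter on low values. For NFIB-cKO against WT it was 1, and 0 with no filter, 0 with median-of-ratios scaling, 2 with the compared groups only, 2 with a series covariate and 0 within the 80s. For NFIX-cKO against WT it was 0, and 1 with copies summed. For NFIB/X-dKO against NFIX-cKO it was 1, and 0 with median-of-ratios scaling, 2 with a series covariate and 0 within the 30s. For NFIB/X-dKO against NFIB-cKO it was 0, and 17 with the compared groups only (3086 of all genes called, a comparison in which the animal series is the same split) and 1 with copies summed. For the comparison by NFIB it was 5, and 1 with no filter and 0 within either series. By counts it was 0 of 81 with edgeR, and 8 of 73 with DESeq2 (which called 4.86% of all genes), 2 with no filter and 1 with copies summed. Shares of all genes are not given for most of these alternatives, so the counts describe the stability of the calls only. The causes were not tested.

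Leaving out 1 library at a time, where a lone sample is assumed to vary like the other groups, gave 2 to 7 members for NFIB/X-dKO against WT, 0 to 3 for NFIB-cKO against WT, 0 to 0 for NFIX-cKO against WT, 0 to 1 for NFIB/X-dKO against NFIX-cKO, 0 to 1 for NFIB/X-dKO against NFIB-cKO, 1 to 4 for the comparison by NFIB, 0 to 0 for the non-additive contrast and 0 to 42 by counts. No paired analysis was possible because the groups share no replicate or animal number.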
